A study of Mus musculus with 4 samples.

Results

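Transcripts of 36 genes of glycolysis and of the response to low oxygen were followed in the heart ventricles of late mouse embryos that lack HDAC2 (KO) and of wild-type embryos (WT). The genes were set by name, and their members on the array are all probe sets to which the platform annotation gives that gene alone. Of the 36 genes, 33 had such a probe set, 78 probe sets in all, out of 18193 genes and 45101 probe sets on the array. Gpi1 and Pfkfb1 had none, and Bnip3l was named only together with a pseudogene, so these 3 are not described. Of these 78 probe sets, 67, from 32 genes, were called Present by the MAS5 software on both arrays of at least 1 genotype and were tested. Of the other 11, 8 were too dim, and 3 are the array's control probe sets for Gapdh, which were left out of the test.

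The KO group comprised 2 arrays, each of RNA pooled from the ventricles of 3 HDAC2-deficient embryos, and the WT group comprised 2 arrays, each of RNA pooled from 2 wild-type embryos. All embryos were at day 17.5 of gestation, on a mixed C57BL/6 and SV129 background. The allele of Hdac2, the promoter of any Cre and the sex of the embryos are not given in the sources used here, and the sample source given for each KO array also reads wt, against its title. Xist, the RNA of the inactive X chromosome, differed strongly between the groups, as given with Pgk1 below. Whether the pools are of separate litters is not stated, so p-values reflect only how far these pools vary, part of which may be technical.

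Hdac2 was read first, as the check of the labels. Probe set 1445684_s_at, its brightest, read 31.4 and 21.0 in KO ventricles, against 1188.5 and 1421.1 in WT ventricles, at least 50.6-fold lower (adjusted p = 2.32e-09 in limma), with no Present call in KO. All 8 markers of heart muscle cells were Present on all arrays. At the brightest probe set of each, their summed signals were 86854.1 and 92624.4 in KO ventricles and 91515.9 and 89576.6 in WT ventricles. Dimmer probe sets of Myh6 and Tnnt2 fell, by log2 differences, KO minus WT, of -1.45 and -0.48 (adjusted p = 0.00977 and 0.0452 in limma). A dimmer one of Ryr2 stood at -0.77 and another of Tnnt2 at 0.080, without passing (adjusted p = 0.0821 and 0.691 in limma). All 13 markers of fast and embryonic skeletal muscle had a probe set, and their summed signals were 1281.3 and 1277.9 in KO ventricles, against 13381.6 and 12483.5 in WT ventricles. Of these 13, 4 were Present on both KO arrays and 12 on both WT arrays, 10 of the 12 tested fell, and none read 0 on all arrays. Several of the genes below are also made in skeletal muscle. Of 8 cartilage and bone markers with a probe set, 1 was Present on both KO arrays and 4 on both WT arrays, and 3 of the 5 tested fell. Their summed signals were 172.2 and 200.8 in KO ventricles, against 483.8 and 418.5 in WT ventricles, with no Present call in KO for Ibsp, Dmp1 and Mmp13 among others. In a bulk sample, fewer cells of a type and less RNA per cell cannot be told apart.

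Glycolysis splits glucose into pyruvate in the cytosol and yields ATP without oxygen. The fetal heart, which lives at low oxygen, is known to draw much of its energy from glucose and lactate before it turns to fatty acids after birth. When oxygen falls, prolyl hydroxylases stop marking the alpha subunits HIF-1alpha and HIF-2alpha for destruction, and these then bind DNA with a partner subunit and raise the transcription of glucose transporters, glycolytic enzymes, growth factors for vessels and other targets. HIF-1alpha itself is controlled mostly at the protein level, which an expression array does not read.

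Among these genes, 2 probe sets passed the threshold of 0.05 after Benjamini-Hochberg adjustment over all 19065 probe sets tested, and both fell in KO. They belong to Hk1, a hexokinase, and to Slc2a4, the insulin-responsive glucose transporter GLUT4. That is 2 of 67 lower and 0 of 67 higher, beside a background of 0.96% of all probe sets tested called lower and 0.383% called higher. At an unadjusted p under 0.05 stood 7 of the 67 higher and 8 lower, where the background was 7.29% higher and 8.23% lower. Both KO arrays lay above both WT arrays at 21 of the 67, against a background of 25.0%, and below both at 24, against a background of 22.5%.

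With each gene represented by its brightest tested probe set, 0 of the 32 genes passed the adjusted threshold in limma, as against 1.3% of the 10184 genes tested (0.481% higher and 0.815% lower). Both KO arrays lay above both WT arrays for 10 of the 32 genes, against a background of 28.0%, and below both for 10, against a background of 20.6%. At an unadjusted p under 0.05 there were 3 higher (Hif1a, P4ha1, Adm) and 3 lower (Slc2a4, Pkm2, Slc16a3), where the background was 8.42% higher and 7.14% lower. The median log2 difference, KO minus WT, was -0.0042 over the 32 genes and 0.035 over all genes tested. The 3 higher genes are all among the 12 tested hypoxia response genes, whose median was 0.11, and the 3 lower ones are all among the 20 tested genes of glucose metabolism, whose median was -0.071. Over all probe sets the split was not as clean, since 3 of the 7 higher ones belong to glucose metabolism (Slc2a1 1426599_a_at and 1426600_at, and Pdha1 1449137_at). The difference between the 2 groups of genes was not tested.

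**Figure D1:**
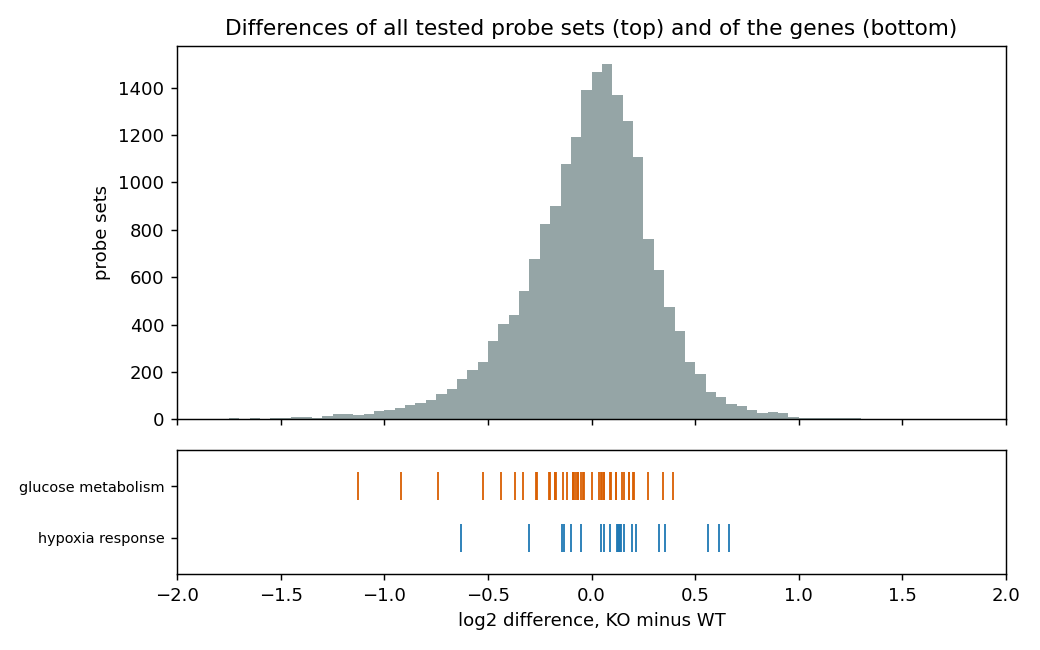
Log2 differences, KO minus WT (x axis), of all 19065 tested probe sets as a histogram (top, y axis in probe sets, bins of 0.05) and of the 67 tested probe sets of the genes as ticks (bottom). The axis ends at -2 and 2, beyond which lie 66 probe sets, and the leftmost tick of glucose metabolism, at -1.13, is Hk1 1420901_a_at.

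Glucose enters heart muscle cells through GLUT1, encoded by Slc2a1 and dominant in the fetus, and GLUT4, encoded by Slc2a4. Slc2a4 fell at probe set 1415959_at, with signals of 230.0 and 204.6 in KO ventricles, against 426.9 and 393.2 in WT ventricles. The KO arrays lay well apart from the WT arrays, at 1.89-fold lower, a log2 difference of -0.92 ± 0.15 (adjusted p = 0.00775 in limma, n = 2 arrays per group). Its brighter probe set 1415958_at read 560.7 and 497.9 in KO ventricles, against 770.7 and 750.3 in WT ventricles, again without overlap, with a log2 difference of -0.53 ± 0.13 that did not pass (adjusted p = 0.0628). Leaving out WT replicate 1 ended the call at 1415959_at (adjusted p = 0.0533). The call also ended without a filter on detection (0.115), without a variance trend (0.162) and with the deposited signal log ratio (0.353). The summed skeletal muscle markers given above moved in the same direction as Slc2a4, which skeletal muscle also makes, and their part in its fall was not tested. Within each array, the signal of 1415959_at over that of 1415958_at was 0.410 and 0.411 in KO ventricles, against 0.554 and 0.524 in WT ventricles (two-sided exact permutation p = 0.333, the smallest that 2 arrays against 2 can give).

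Slc2a1 stood higher in KO at 2 of its 3 probe sets, without passing the test. Probe set 1426600_at read 636.4 and 663.1 in KO ventricles, against 446.8 and 546.8 in WT ventricles (0.39 ± 0.14, adjusted p = 0.191). Probe set 1426599_a_at read 1055.8 and 902.9 in KO ventricles, against 795.7 and 743.7 in WT ventricles (0.34 ± 0.12, adjusted p = 0.205). At both, the KO arrays lay above the WT arrays. At the brightest, 1434773_a_at, the signals were 1671.7 and 1532.1 in KO ventricles, against 1480.4 and 1588.0 in WT ventricles, and the groups overlapped (0.062 ± 0.11, with -0.0011 without KO replicate 1).

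Hexokinases trap glucose in the cell as glucose 6-phosphate. Hk1, the form bound to mitochondria in most tissues, fell at probe set 1420901_a_at, where the signals were 600.7 and 474.2 in KO ventricles, against 1190.2 and 1140.5 in WT ventricles. The higher KO array lay far below the lower WT array, and the group means were 2.18-fold lower in KO, the largest difference among the 67 probe sets (log2 difference -1.13 ± 0.13, adjusted p = 0.000519 in limma). Leaving out any 1 array kept the difference between -1.30 and -0.96 with an adjusted p of at most 0.000819. The call ended without a variance trend (adjusted p = 0.156) and with the deposited signal log ratio (-1.05, adjusted p = 0.353).

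The other Hk1 probe set, 1437974_a_at, read 2858.1 and 2513.4 in KO ventricles, against 2841.3 and 2985.9 in WT ventricles, with overlapping groups and a log2 difference of -0.12 ± 0.10 (adjusted p = 0.599). The ratio of the signal of 1420901_a_at to that of 1437974_a_at within each array was 0.21 and 0.189 in KO ventricles, against 0.419 and 0.382 in WT ventricles, 0.498 times as high in KO. With 2 arrays against 2, the two-sided exact permutation test of that log ratio gave p = 0.333, the smallest it can give. In the naming of this array, the suffix _a_at marks probe sets whose probes match several transcripts of the same gene, and the Hk1 transcripts that each matches were not looked up. The signal of the Gapdh control toward the 3' end over that toward the 5' end, a measure of RNA length, was also higher in KO, at 1.18 and 1.01 against 0.844 and 0.949 in WT. The same measure for actin was 2.75 and 2.42 in KO and 1.85 and 2.32 in WT, and its part in the Hk1 ratio was not tested. Hk2, the hexokinase that muscle raises in response to insulin and low oxygen, read 1016.2 and 1122.6 in KO ventricles, against 965.1 and 1006.8 in WT ventricles (0.12 ± 0.11, adjusted p = 0.662).

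**Figure D2:**
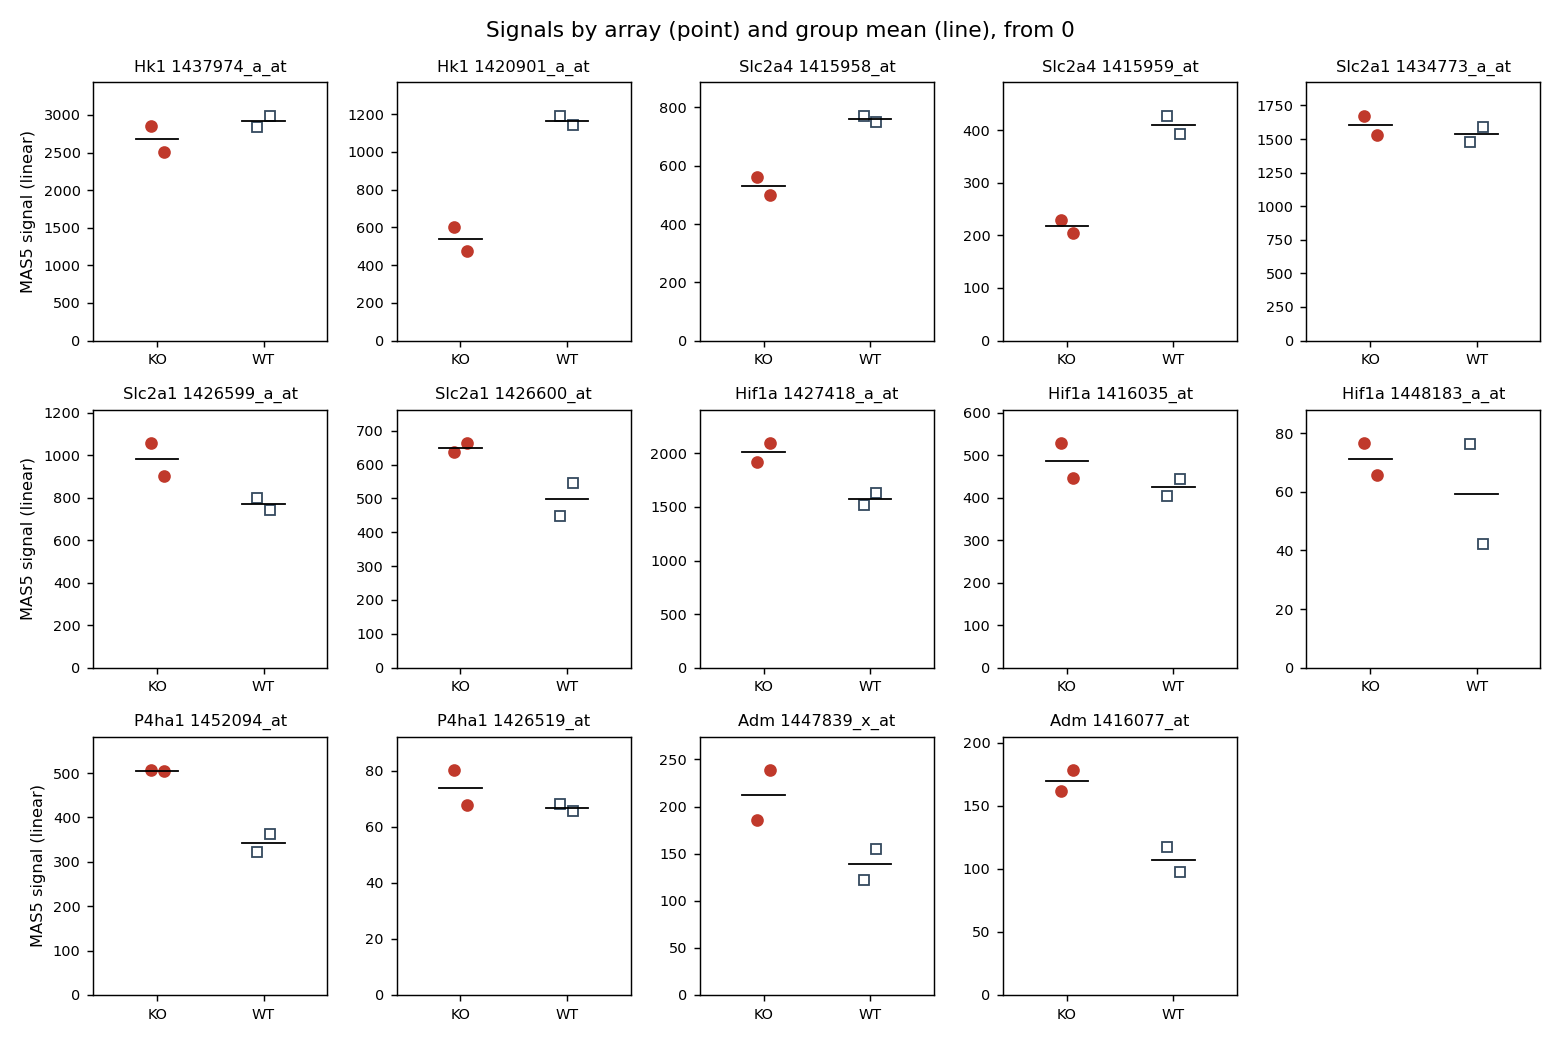
MAS5 signal (y axis, linear, from 0) on each array for the 14 tested probe sets of Hk1, Slc2a4, Slc2a1, Hif1a, P4ha1 and Adm, with 2 KO arrays (filled circles) left of 2 WT arrays (open squares) and lines at the group means. Hk1 1420901_a_at stands at 600.7 and 474.2 in KO against 1190.2 and 1140.5 in WT, whereas Hk1 1437974_a_at overlaps between the groups.

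RefSeq lists 2 starts for Hk1 on build GRCm38.p6, and the promoter of each is shown because the probe sets of this gene read so differently. Each sequence runs from 250 bases before the start to 50 after it. Capitals mark ACGTG and GCGTG on either strand, the letters of the core of the hypoxia response element, so that CACGT and CACGC on the printed strand count too. ACGTG also lies within CACGTG, the E-box, where it is counted on both strands. The downstream promoter, at chr10:62340372-62340671, minus strand, holds 2 matches to ACGTG and 3 to GCGTG. The upstream one, at chr10:62379859-62380158, minus strand, holds no match to either.
Hk1 downstream start: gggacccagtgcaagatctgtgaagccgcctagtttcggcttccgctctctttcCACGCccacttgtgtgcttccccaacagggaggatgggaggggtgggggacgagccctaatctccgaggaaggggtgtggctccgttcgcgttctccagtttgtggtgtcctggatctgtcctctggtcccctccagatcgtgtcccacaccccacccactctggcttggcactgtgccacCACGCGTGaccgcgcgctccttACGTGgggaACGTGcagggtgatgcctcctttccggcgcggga
Hk1 upstream start: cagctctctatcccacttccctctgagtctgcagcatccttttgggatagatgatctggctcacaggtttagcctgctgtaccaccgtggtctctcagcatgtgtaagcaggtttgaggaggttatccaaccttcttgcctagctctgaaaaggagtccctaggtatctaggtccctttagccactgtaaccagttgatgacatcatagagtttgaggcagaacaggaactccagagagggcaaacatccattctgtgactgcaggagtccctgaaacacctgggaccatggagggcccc

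Phosphofructokinase commits glucose to glycolysis, and its activity is set by fructose 2,6-bisphosphate, which the Pfkfb enzymes make and remove. None of the 8 tested probe sets of Pfkl, Pfkp and Pfkfb3 nor the 1 of Pfkfb2 passed. The brightest probe set of Pfkl, the liver-type subunit, read 2943.0 and 2356.5 in KO ventricles, against 2763.4 and 2785.0 in WT ventricles, where the KO arrays stood on either side of the WT arrays (-0.075 ± 0.11, and 0.085 without KO replicate 2). The brightest of Pfkp, the platelet-type subunit, read 1647.4 and 1781.9 in KO ventricles, against 1453.9 and 1517.5 in WT ventricles, with both KO arrays higher (0.21 ± 0.10, adjusted p = 0.367). Pfkp stood above WT on both KO arrays at 1437759_at too, and below at 1430634_a_at, by log2 differences of 0.18 and -0.050.

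Pfkfb2, the heart-type regulator, read 107.9 and 107.3 in KO ventricles, against 106.6 and 102.0 in WT ventricles at its 1 detected probe set (0.045 ± 0.20), values within a few units of each other. Its other 3 probe sets were not tested. One of them, 1422090_a_at, read 1.0 and 0.4 in KO ventricles, against 13.2 and 9.9 in WT ventricles, with a Present call on WT replicate 1 alone. Pfkfb3, the inducible regulator and a HIF target, had log2 differences of 0.035 ± 0.22 at 1416432_at and -0.44 ± 0.31 at the dim 1456676_a_at (adjusted p = 0.515), and at the second both KO arrays, 40.1 and 33.0, lay below both WT arrays, 51.9 and 46.7.

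Aldolase cleaves the 6-carbon sugar, and triose phosphate isomerase interconverts the products. At all 5 probe sets of Aldoa, the muscle-type aldolase, both KO arrays lay below both WT arrays, with log2 differences between -0.33 and -0.039, and none passed. The dimmest of the 5, 1447734_x_at, read 2276.6 and 2356.5 in KO ventricles, against 3012.7 and 2819.9 in WT ventricles (-0.33 ± 0.096, adjusted p = 0.121), and the brightest, 1416921_x_at, read 11466.7 and 11615.7 in KO ventricles, against 11649.0 and 12873.1 in WT ventricles (-0.086 ± 0.083). The suffix _x_at marks probe sets that hold probes similar to other sequences, so the 5 may share signal with related genes or pseudogenes. Aldoc, the brain-type aldolase, read 410.6 and 357.5 in KO ventricles, against 354.9 and 321.3 in WT ventricles at 1451461_a_at (0.18 ± 0.15, adjusted p = 0.578), and its second probe set was not detected.

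Tpi1, the isomerase, had log2 differences from -0.20 to -0.067 at 3 probe sets. The most distant, 1435659_a_at, read 6435.8 and 6618.9 in KO ventricles, against 7563.5 and 7423.2 in WT ventricles, with the groups apart and an adjusted p of 0.278.

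In the second phase of the pathway, glyceraldehyde 3-phosphate dehydrogenase is followed by phosphoglycerate kinase and pyruvate kinase, which make ATP. Gapdh was read at 3 control probe sets placed along the transcript, which were not in the test. Toward the 5' end it read 9633.3 and 10840.6 in KO ventricles, against 13351.6 and 12458.3 in WT ventricles. In the middle it read 10418.9 and 10867.4 in KO ventricles, against 12680.5 and 11819.8 in WT ventricles, and toward the 3' end 11346.8 and 10924.7 in KO ventricles, against 11269.8 and 11825.3 in WT ventricles. Both KO arrays were lower at the first and second, and the groups overlapped at the third. With these 3 kept in the fit, an alternative added after the data were seen, the log2 differences were -0.34 ± 0.087 (adjusted p = 0.0837), -0.20 ± 0.082 (adjusted p = 0.261) and -0.052 ± 0.081 (adjusted p = 0.798) in limma.

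Pgk1, the kinase, which lies on the X chromosome, read 10994.8 and 11894.1 in KO ventricles, against 12372.1 and 11999.8 in WT ventricles at its brightest probe set (-0.092 ± 0.082), with 0.059 ± 0.086 and 0.00043 at the others. Xist, the RNA of the inactive X chromosome, was also higher in KO. Probe set 1436936_s_at read 547.9 and 793.7 in KO ventricles, against 80.5 and 90.1 in WT ventricles (7.74-fold, adjusted p = 8.10e-07 in limma). At 1427262_at it read 413.7 and 797.1 in KO ventricles, against 1.3 and 6.1 in WT ventricles, with no Present call in WT (adjusted p = 3.41e-06 in limma). The relation of Xist to Pgk1 and to the X-linked Pdha1 was not tested. A difference in the sex of the pooled embryos, which is not given, cannot be told apart from genotype at any gene here. Pkm2 (now named Pkm), the muscle and fetal pyruvate kinase, read 5808.2 and 4878.2 in KO ventricles, against 6278.9 and 6515.4 in WT ventricles, with both KO arrays lower (-0.26 ± 0.098, adjusted p = 0.224). KO replicate 2 was the lower of the KO arrays, and without KO replicate 1 the difference was -0.39 with an adjusted p of 0.0325, whereas without KO replicate 2 it was -0.14 with an adjusted p of 0.567.

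**Figure D3:**
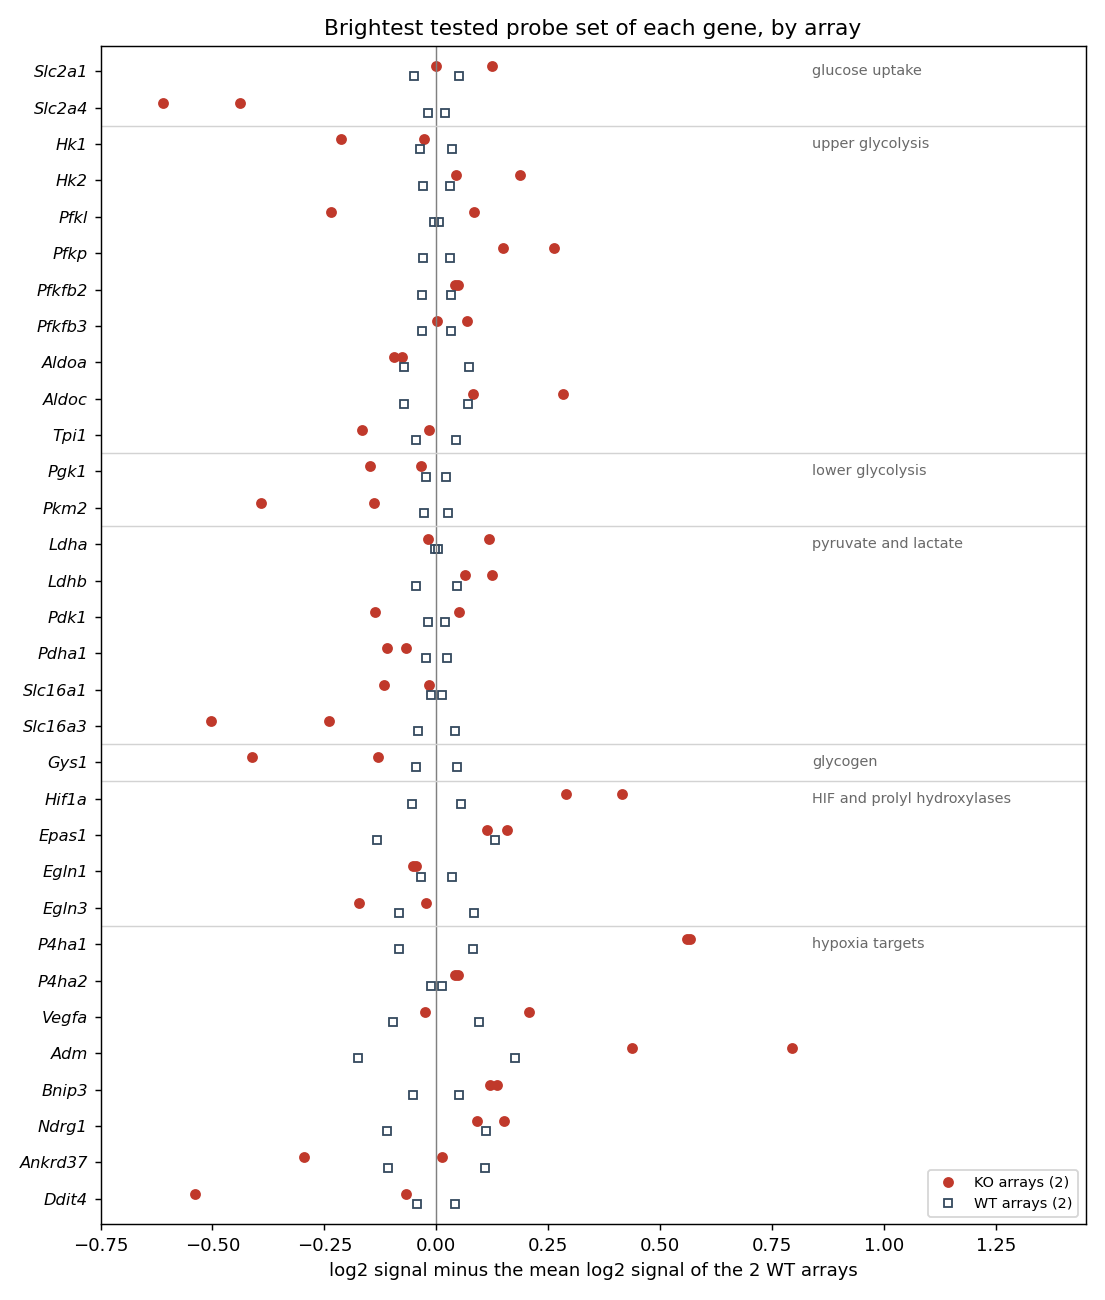
Log2 signal of each array minus the mean log2 signal of the 2 WT arrays (x axis), for the brightest tested probe set of each of the 32 genes, grouped by role, with KO arrays as filled circles and WT arrays as open squares. Slc2a4 lies farthest to the left and P4ha1 and Adm farthest to the right, and in Pkm2, Slc16a3 and Gys1 the KO arrays differ from each other as well as from WT. In Ddit4, KO replicate 1 lies close to WT and KO replicate 2 lies lower.

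Pyruvate is either reduced to lactate by lactate dehydrogenase or taken into mitochondria for pyruvate dehydrogenase. Ldha, the subunit favoured in muscle at low oxygen, read 9549.4 and 10496.3 in KO ventricles, against 9697.1 and 9646.2 in WT ventricles, with overlapping groups (0.050 ± 0.084, and -0.018 without KO replicate 2). At all 4 probe sets of Ldhb, the heart-type subunit, both KO arrays lay above both WT arrays, by log2 differences of 0.094 to 0.20. None of the 4, which share a transcript, passed the test. At 1416183_a_at the signals were 5480.6 and 6392.0 in KO ventricles, against 4883.6 and 5448.8 in WT ventricles (0.20 ± 0.10, adjusted p = 0.366).

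Pdk1, a kinase that shuts off pyruvate dehydrogenase and a HIF target, had overlapping groups at 3 of its 4 tested probe sets and log2 differences from -0.14 to 0.12. The probe sets of Pdha1, the X-linked catalytic subunit of that dehydrogenase, went opposite ways. At the brighter 1418560_at the signals were 5764.8 and 5936.1 in KO ventricles, against 6125.8 and 6325.7 in WT ventricles (-0.090 ± 0.085), and at 1449137_at they were 959.0 and 1084.6 in KO ventricles, against 863.0 and 827.2 in WT ventricles (0.27 ± 0.12, adjusted p = 0.291). The KO arrays lay below WT at the first and above WT at the second.

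Of the lactate carriers, Slc16a1, which encodes MCT1, read 1495.0 and 1394.6 in KO ventricles, against 1498.6 and 1525.3 in WT ventricles (-0.066 ± 0.10). Slc16a3, which encodes MCT4, the carrier of glycolytic muscle and a HIF target, read 576.1 and 480.0 in KO ventricles, against 661.1 and 699.9 in WT ventricles, with both KO arrays lower (-0.37 ± 0.13, adjusted p = 0.209). Glycogen synthase of muscle, Gys1, read 855.0 and 703.8 in KO ventricles, against 906.4 and 965.9 in WT ventricles at its brighter probe set (-0.27 ± 0.13, adjusted p = 0.326). At the dim 1450196_s_at it read 44.6 and 55.7 in KO ventricles, against 91.1 and 76.3 in WT ventricles, with no Present call in KO, at least 1.67-fold lower (adjusted p = 0.197). Slc16a3 and Gys1 are expressed in skeletal muscle as well, and its markers were lower too, by the sums given above. The part of skeletal muscle in these values was not tested.

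**Figure D4:**
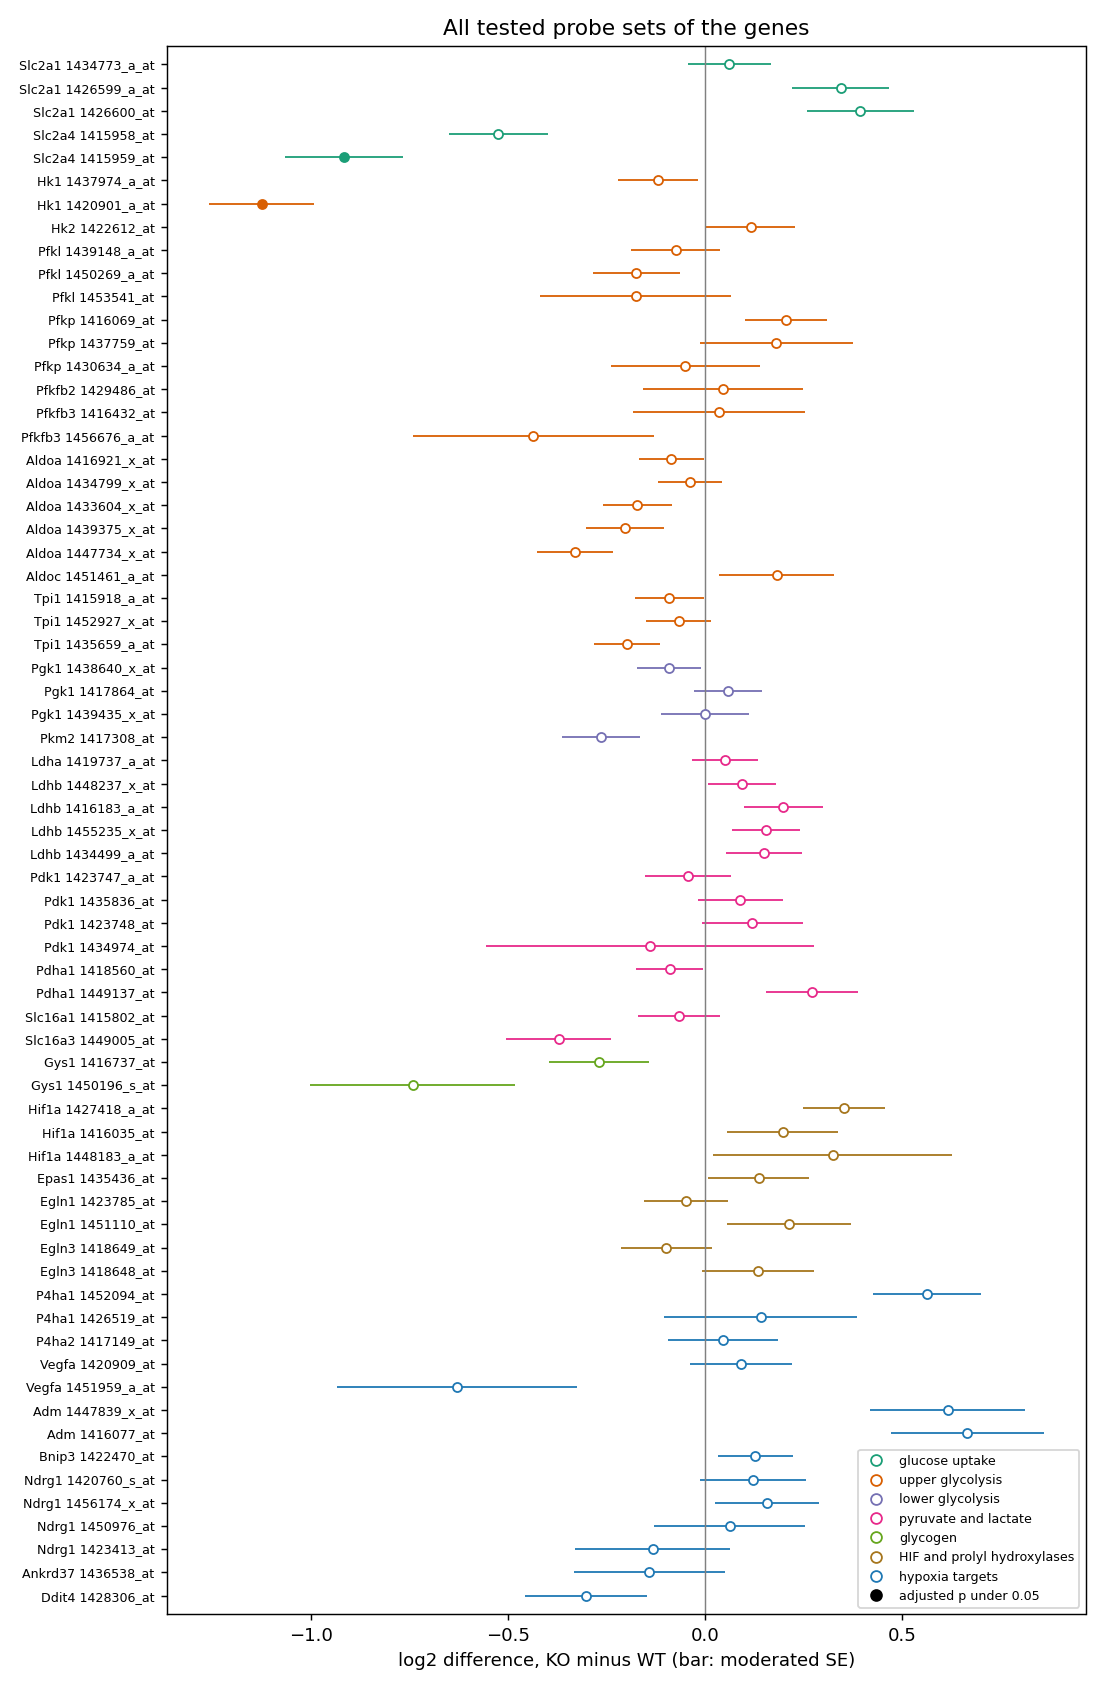
Log2 difference, KO minus WT (x axis), with its moderated SE (bars) for each of the 67 tested probe sets, coloured by role, filled where the adjusted p is under 0.05. The 2 filled points are Slc2a4 1415959_at at -0.92 and Hk1 1420901_a_at at -1.13, and the other 65 did not pass.

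The subunits and regulators of the hypoxia factors gave no call. Hif1a, which encodes HIF-1alpha, read 1923.2 and 2095.3 in KO ventricles, against 1513.9 and 1632.8 in WT ventricles at its brightest probe set. Both KO arrays were higher, by 1.28-fold, and the difference did not pass (0.35 ± 0.10, adjusted p = 0.127). Its other tested probe sets stood at 0.20 ± 0.14 and 0.32 ± 0.30, all positive, and the undetected 1431981_at read 46.4 and 28.4 in KO ventricles, against 49.2 and 48.8 in WT ventricles. Epas1, which encodes HIF-2alpha and is strong in endothelial cells, read 715.0 and 738.4 in KO ventricles, against 724.6 and 603.8 in WT ventricles, with overlapping groups (0.14 ± 0.13, adjusted p = 0.650). All 6 endothelial markers were Present on all arrays, with summed signals of 2595.3 and 2839.8 in KO and 2626.7 and 2625.1 in WT.

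Egln1, the main prolyl hydroxylase that senses oxygen, read 1264.8 and 1272.3 in KO ventricles, against 1280.7 and 1344.6 in WT ventricles at 1423785_at (-0.049 ± 0.11) and stood at 0.21 ± 0.16 at its dimmer probe set. Egln3, a hydroxylase that HIF induces, read 1178.4 and 1062.1 in KO ventricles, against 1269.8 and 1129.5 in WT ventricles at 1418649_at (-0.098 ± 0.12) and stood at 0.13 ± 0.14 at the other. For each of the 2 genes, the probe sets differed in sign and the differences were within 2 SE of 0.

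Among the hypoxia targets, P4ha1 and Adm stood farthest above WT. P4ha1 encodes the catalytic subunit of the collagen prolyl hydroxylase, an enzyme of the endoplasmic reticulum that is separate from the oxygen sensors. It read 506.2 and 504.1 in KO ventricles, against 322.9 and 362.1 in WT ventricles at 1452094_at. The KO arrays were close to each other and both higher, by 1.48-fold (0.56 ± 0.14), just outside the threshold (adjusted p = 0.0672, from 0.0173 to 0.67 over its alternatives, where the deposited signal log ratio gave a difference of 0.25). That ratio was -1.8 and -1.2 in KO ventricles, against -1.7 and -1.8 in WT ventricles, with overlap. At the dim 1426519_at, P4ha1 read 80.1 and 67.7 in KO ventricles, against 68.0 and 65.6 in WT ventricles (0.14 ± 0.24), again with overlap. All 7 fibroblast markers were Present on all arrays, with lower summed signals in KO, 14755.8 and 15917.4, against 17557.2 and 17775.2 in WT, but the list did not go one way. Col1a1 and Col1a2 fell, Col3a1 and Dcn stood lower without passing, and Lum, Postn and Pdgfra stood higher without passing, Pdgfra by 0.52 (adjusted p = 0.162 in limma). The part of fibroblasts, or of cartilage and bone, in the P4ha1 values was not tested. P4ha2, its paralogue, read 350.8 and 352.8 in KO ventricles, against 343.9 and 338.2 in WT ventricles (0.045 ± 0.14).

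Adm encodes adrenomedullin, a peptide that widens vessels and that the embryo needs for its heart and lymphatics. It read 161.5 and 178.2 in KO ventricles, against 117.0 and 97.8 in WT ventricles at 1416077_at and 186.1 and 238.4 in KO ventricles, against 121.7 and 155.2 in WT ventricles at 1447839_x_at. At both, all KO values lay above all WT values, by 1.59-fold and 1.53-fold, and neither passed (adjusted p = 0.123 and 0.160). In the deposited signal log ratio the differences were 0.65 at the first and 0.050 at the second. Vegfa, the growth factor of vessels, read 853.4 and 725.8 in KO ventricles, against 789.9 and 691.7 in WT ventricles at its brighter probe set (0.090 ± 0.13, with -0.026 without KO replicate 1 and -0.0053 without WT replicate 2). At 1451959_a_at it read 78.4 and 128.4 in KO ventricles, against 220.2 and 109.4 in WT ventricles, where the groups overlapped and the WT arrays lay far apart (-0.63 ± 0.31, adjusted p = 0.344).

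The other targets lay closer to WT. Bnip3, a mitochondrial protein of mitophagy, read 2796.1 and 2767.1 in KO ventricles, against 2456.2 and 2638.8 in WT ventricles (0.13 ± 0.096), with both KO arrays slightly higher. Ndrg1, a stress-responsive protein, had log2 differences from -0.13 to 0.16 at 4 tested probe sets. Ankrd37, an ankyrin-repeat protein induced by HIF-1, read 132.3 and 163.7 in KO ventricles, against 175.1 and 150.6 in WT ventricles (-0.14 ± 0.19, and 0.012 without KO replicate 1). Ddit4, also called REDD1, which restrains mTORC1 when oxygen falls, read 596.2 and 429.6 in KO ventricles, against 606.3 and 643.1 in WT ventricles. Its KO arrays differed from each other more than KO replicate 1 did from WT (-0.30 ± 0.15, adjusted p = 0.370).

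The promoters of P4ha1, Adm and Slc2a1 are shown as those of the genes with the largest positive KO minus WT differences at any tested probe set, with capitals as for Hk1. P4ha1, at chr10:59323046-59323345, plus strand, holds 1 match to ACGTG and 2 to GCGTG. Adm, at chr7:110627407-110627706, plus strand, holds 0 and 2, and Slc2a1, at chr4:119108495-119108794, plus strand, holds 1 and 1.
P4ha1: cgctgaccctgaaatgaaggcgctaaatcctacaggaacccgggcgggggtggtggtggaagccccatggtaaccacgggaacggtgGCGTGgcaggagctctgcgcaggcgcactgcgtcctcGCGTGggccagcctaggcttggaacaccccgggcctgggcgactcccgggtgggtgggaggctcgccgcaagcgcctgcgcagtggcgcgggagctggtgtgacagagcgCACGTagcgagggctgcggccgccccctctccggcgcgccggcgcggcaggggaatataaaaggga
Adm: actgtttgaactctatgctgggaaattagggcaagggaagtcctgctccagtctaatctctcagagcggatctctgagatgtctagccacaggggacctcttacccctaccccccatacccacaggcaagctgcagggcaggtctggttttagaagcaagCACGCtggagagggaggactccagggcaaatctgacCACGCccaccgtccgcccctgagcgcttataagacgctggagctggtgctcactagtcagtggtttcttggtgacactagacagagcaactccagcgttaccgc
Slc2a1: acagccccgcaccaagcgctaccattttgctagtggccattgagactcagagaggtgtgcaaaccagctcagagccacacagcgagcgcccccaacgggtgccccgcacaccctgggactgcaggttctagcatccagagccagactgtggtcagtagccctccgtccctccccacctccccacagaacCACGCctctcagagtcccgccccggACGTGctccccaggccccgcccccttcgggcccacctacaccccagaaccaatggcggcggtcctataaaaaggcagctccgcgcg
The RefSeq table matched 32 of the 36 genes, with 46 promoters, all but Slc2a4, Ndrg1, Epas1 and Bnip3l. ACGTG on either strand was in 54.3% of these 46, in 19.6% of all 32851 promoters in the table and in 25.6% of the 10650 promoters of genes tested on the array. GCGTG was in 54.3%, 32.4% and 50.7% of the same sets. Genes with several starts count more than once, the letters are more frequent in promoters rich in CG, and a match is a description of the sequence, not a binding site. Genes with a match included Hk1, which was called at 1420901_a_at, and Pkm2, Ldha and P4ha1, none of which passed the test.

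By position, 4 of the tested genes, Hk1, Pfkl, P4ha1 and Ddit4, lie on chromosome 10, the chromosome of Hdac2, in assembly GRCm38.p6. They account for 8 of the 67 probe sets. Their brightest probe sets stood on both sides of 0, from -0.30 for Ddit4 to 0.56 for P4ha1. Of the 8, only Hk1 1420901_a_at passed, at -1.13, the largest difference among the 67. The relation of position to these differences was not tested.

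A wider set of 105 other genes of these pathways, of which 75 were tested, showed 1 call in limma. Vldlr, a lipoprotein receptor and HIF target, fell at its brightest probe set, 1434465_x_at, which read 785.2 and 954.7 in KO ventricles, against 1320.0 and 1302.7 in WT ventricles (-0.60 ± 0.12, adjusted p = 0.0276). Its 5 other tested probe sets did not pass and went both ways, with 1435893_at at 0.39 ± 0.15. Leaving out either WT array ended the call, with an adjusted p of 0.13 without replicate 1 and 0.0853 without replicate 2, as did having no filter on detection (0.241) or no variance trend (0.277). In the deposited signal log ratio the difference was -0.050. One called gene of 75 stands beside the background of 1.3% of genes, and the unadjusted counts of 10 higher and 11 lower stand beside 8.42% and 7.14%. The list's median was -0.0086, against 0.035 over all genes tested.

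None of the 10 other glycolysis genes tested passed. At unadjusted p under 0.05, Bpgm, which makes the 2,3-bisphosphoglycerate of red cells, stood at 0.44 ± 0.18 at its brightest probe set. Its others stood at 0.93 ± 0.22 (1415864_at, adjusted p = 0.0628 in limma) and at 0.013 ± 0.26 (1448119_at), with overlap at the last. Pfkm, the muscle phosphofructokinase, read 2836.6 and 2414.4 in KO ventricles, against 3128.0 and 3050.3 in WT ventricles (-0.24 ± 0.10, adjusted p = 0.291). Pgam2, the muscle phosphoglycerate mutase, read 4438.8 and 4104.8 in KO ventricles, against 4954.3 and 5092.6 in WT ventricles (-0.23 ± 0.090, adjusted p = 0.239), and Pklr, the liver and red cell pyruvate kinase, stood at -0.54 ± 0.25. The 7 erythroid markers with a probe set had summed signals of 695.9 and 732.4 in KO ventricles and 625.1 and 525.1 in WT ventricles. Of these, Hbb-bh1, Epb42 and Rhag had no Present call on any array. Of the 3 tested, 1 passed, Hbb-y, which was higher in KO. At its brightest probe set it read 77.2 and 55.6 in KO ventricles, against 9.8 and 18.8 in WT ventricles (2.27 ± 0.41, adjusted p = 0.0128 in limma). At its other tested probe set it was also higher (1.83 ± 0.39, adjusted p = 0.0376 in limma). Alas2 stood at 0.31 ± 0.15 and Slc4a1 at -0.012 ± 0.26 at their brightest probe sets, without passing. In skeletal muscle, Pfkm and Pgam2 are the main forms, and its markers were lower in KO as both were. The part of either cell type in these values was not tested.

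In the pyruvate group (12 tested), Bsg, the chaperone of MCT1 and MCT4, read 4474.9 and 3419.5 in KO ventricles, against 5203.3 and 5286.0 in WT ventricles (-0.42 ± 0.12, adjusted p = 0.0993). Without KO replicate 1 it passed, at -0.62 (adjusted p = 0.00283), and without KO replicate 2 it stood at -0.23 (adjusted p = 0.316). Pdk3, a relative of Pdk1, stood at 0.33 ± 0.15. In the glycogen group (11 tested), the phosphorylases went opposite ways. Pygl, the liver form, read 755.2 and 764.3 in KO ventricles, against 511.7 and 567.7 in WT ventricles (0.50 ± 0.12, adjusted p = 0.0732). Pygm, the muscle form, read 1919.1 and 1395.7 in KO ventricles, against 2192.3 and 2277.1 in WT ventricles (-0.45 ± 0.13, adjusted p = 0.127), which passed without KO replicate 1 at -0.68 (adjusted p = 0.00381) and stood at -0.22 without KO replicate 2 (adjusted p = 0.416). Gbe1, the branching enzyme and a HIF target, stood at 0.51 ± 0.15. Each of these 5 genes, named for an unadjusted p under 0.05, had both KO arrays on the same side of both WT arrays. Of all 12 tested in the pyruvate group, both KO arrays lay above both WT arrays for 3 and below for 4. In the glycogen group it was 6 and 4 of 11, where the background was 28.0% above and 20.6% below.

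Of the genes that control HIF (12 tested), Arnt, the partner subunit of both HIF alpha proteins, read 220.9 and 182.5 in KO ventricles, against 315.1 and 278.9 in WT ventricles at its brightest probe set (-0.56 ± 0.17, adjusted p = 0.126), opposite in sign to Hif1a, and 0.0 in the deposited signal log ratio. Its other tested probe sets stood at -0.58 ± 0.27 (1421721_a_at) and, with overlapping groups, at 0.14 ± 0.27 (1425064_at). Ep300, a coactivator and histone acetyltransferase, stood at 0.40 ± 0.16. Among the 30 other HIF targets tested, 5 were higher and 5 lower at unadjusted p under 0.05, beside a background of 8.42% and 7.14%. The higher ones were Kdm3a, a histone demethylase (0.51 ± 0.16), Kdr, a receptor for VEGF (0.46 ± 0.16), Ak4, a mitochondrial adenylate kinase (0.38 ± 0.15), Igfbp3, a binding protein of growth factors (0.40 ± 0.17), and Wsb1, a ubiquitin ligase subunit (0.39 ± 0.16). The lower ones were Vldlr, Narf (-0.57 ± 0.15), Tgfb3, a TGF-beta ligand (-0.65 ± 0.21), Lox, which cross-links collagen (-0.47 ± 0.15), and Plod1, which hydroxylates collagen lysines (-0.43 ± 0.14). In the deposited signal log ratio, Kdr stood at -0.10, and Igfbp3, Wsb1 and Narf at 0.0. Lox and Plod1 were lower as were the collagen genes Col1a1 and Col1a2 and the cartilage and bone markers, but not Lum, Postn or Pdgfra, and the part of these cell types in the values of Lox, Plod1 and Tgfb3 was not tested. Without KO replicate 1, Kdm3a (0.69, adjusted p = 0.0356), Wsb1 (0.65, adjusted p = 0.0235) and Plod1 (-0.58, adjusted p = 0.0384) passed. Without KO replicate 2 they stood at 0.33, 0.13 and -0.27, and over the omissions their adjusted p in limma reached 0.592, 0.766 and 0.551.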

How the data were processed

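RNA from ventricles of day 17.5 embryos was hybridised to 1-colour Affymetrix MOE430v2 arrays from 6 µg of total RNA, per the labels. The authors deposited 1 signal per probe set, a linear intensity. The submitters' processing notes name MAS5 as the tool, its version not given. All 4 arrays shared a 2%-trimmed mean of 150. Beside it the deposited files hold a detection p-value with its Present call, and a signal log ratio, on a log2 scale, against a baseline array that is not named. The deposited table of the series held identical signals.

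Probe sets were named from the platform annotation, with symbols updated through assembly GRCm38.p6. Of 45037 probe sets other than the 64 controls, 34945 name 1 gene. The 19065 probe sets called Present on both KO or both WT arrays were fitted as log2 signal, with signals of 0 set to 0.1, in limma 3.58.1 (lmFit, eBayes with a variance trend, R 4.3.3), genotype as the sole factor. Two-sided p-values were adjusted by Benjamini-Hochberg over all 19065. Differences are KO minus WT ± moderated SE, n = 2 arrays per group, and the number of arrays limits the precision. "At least" folds set the brighter group against the higher of the dim signal and the lowest Present signal, 4.1 to 6.9 by array. The fit was tested on simulated data. Present calls covered 42.4% to 43.7% of probe sets by array. Deviations from group means of same-numbered arrays correlated at r = -0.011 over probe sets. With 2 arrays per group, that does not settle whether same-numbered arrays were paired, and the main fit did not pair them.

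The genes and lists were chosen with earlier results of these data known. All genes are named, with values on every array for those at an unadjusted p under 0.05 at any probe set. Other pathway genes are named where their brightest tested probe set has an unadjusted p under 0.05. Alternatives were other scalings, offsets, detection filters, variance priors, the signal log ratio, a replicate block, another probe set per gene and leaving out each array. Promoter sequences are from RefSeq, GRCm38.p6.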

Additional observations from a re-analysis of the deposited data

How the results depend on the processing

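Of the 62 single probe sets followed through up to 15 alternatives (928 values), 888 values kept their direction and their side of the threshold. The median log2 difference of the 32 genes lay between -0.035 and 0.025 over all alternatives, from -0.0094 to 0.0053 with 1 array left out. The 2 falls, in Hk1 1420901_a_at and Slc2a4 1415959_at, kept their sign under every alternative run. Without a variance trend, 0 of the genes' probe sets were called lower, with 3 higher and 5 lower at unadjusted p under 0.05, 1 of the 32 genes lower, and 0 of the other pathway genes called (5 higher and 7 lower unadjusted), while the whole array had 4 higher and 19 lower. Without the filter on detection, 1 of the genes' probe sets was called lower (Hk1, adjusted p = 0.0496), 0 other pathway genes were called, and the whole array had 7 higher and 30 lower. The deposited signal log ratio called 0 of the genes' probe sets and 0 other pathway genes, with 4 probe sets and 1 gene higher at unadjusted p under 0.05 (other pathway genes 6 higher and 3 lower), and 0 higher and 1 lower on the whole array. That measure reversed Pfkfb3 1416432_at (-0.10), Pdk1 1423747_a_at (0.050), Pdha1 1418560_at (0.15), Egln1 1423785_at (0.050) and Kdr 1449379_at (-0.10), and none of these had passed.

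Quantile normalization gave 5 lower genes at unadjusted p under 0.05 and centring on the median gave 5, with 13 probe sets lower, and both called Slc2a4 1415958_at (adjusted p = 0.0492 and 0.0413). The 2 scalings moved the median over all probe sets by 0.010 and -0.031. With the dimmest of the most detected probe sets per gene, 6 genes were lower at unadjusted p under 0.05 and 0 other pathway genes were called. Same-numbered arrays share a number in their titles, and whether they were paired is not stated. Their deviations correlated at r = -0.011, which does not settle a pairing, so the replicate block is given as a description. The block called 271 higher and 450 lower on the whole array. Among the genes' probe sets it called 1 higher (P4ha1 1452094_at, adjusted p = 0.0173 in limma) and 3 lower, and it called 7 other pathway genes. With the block, 5 genes were lower at unadjusted p under 0.05. With 1 array left out, the lone array of a group is assumed to vary like the others. The called counts then ran from 48 to 222 higher and from 110 to 428 lower on the whole array, from 0 to 0 higher and from 1 to 4 lower among the genes' probe sets and from 0 to 6 among the other pathway genes. At unadjusted p under 0.05 they ran from 4 to 9 probe sets higher and 5 to 12 lower, from 1 to 4 genes higher and 1 to 6 lower, and from 2 to 11 other pathway genes higher and 5 to 12 lower. The 4 called without KO replicate 1 were Hk1 1420901_a_at, both Slc2a4 probe sets (1415958_at at adjusted p = 0.0259) and Pkm2. Leaving out 1 array also reversed Slc2a1 1434773_a_at (-0.0011 to 0.12), Pfkl 1439148_a_at (-0.24 to 0.085), Ldha 1419737_a_at (-0.018 to 0.12), Pdk1 1423747_a_at (-0.14 to 0.051), Vegfa 1420909_at (-0.026 to 0.21) and Ankrd37 1436538_at (-0.30 to 0.012). The cause of these changes was not tested. Signals near the lowest Present signals of 4.1 to 6.9 give no reliable fold.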

Other observations

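Of the 8 dim probe sets that were not tested, 2 stand with their genes above and the other 6 are given here. Of Pfkfb2, 1422091_at read 8.5 and 7.6 in KO ventricles, against 41.2 and 26.4 in WT ventricles and 1422092_at read 30.0 and 20.2 in KO ventricles, against 24.0 and 28.8 in WT ventricles, all called Absent. Of Slc16a1, 1446274_at read 21.9 and 21.5 in KO ventricles, against 9.9 and 4.0 in WT ventricles, and of Epas1, 1449888_at read 47.9 and 29.5 in KO ventricles, against 83.5 and 56.0 in WT ventricles, again with no Present call. Aldoc at 1424714_at read 7.4 and 3.1 in KO ventricles, against 6.0 and 10.1 in WT ventricles, and Ndrg1 at 1450977_s_at read 24.7 and 33.9 in KO ventricles, against 43.2 and 31.0 in WT ventricles, Absent on all arrays. None of these values carries a test.

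The signal log ratio in the authors' deposited table, against the unnamed baseline, was 8.1 and 7.9 in KO and 9.2 and 8.9 in WT for Hk1 1420901_a_at. For Hk1 1437974_a_at it was 5.7 and 5.6 in KO and 5.8 and 5.8 in WT in the same table. For Slc2a4 1415959_at the authors' deposited table gave 1.7 and 2.0 in KO and 3.5 and 3.5 in WT. For Hk1 1420901_a_at and Slc2a4 1415959_at, both KO arrays lay below both WT arrays in these ratios, as in the signals. For Hk1 1437974_a_at the ratios also put both KO arrays lower, whereas the signals overlapped.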
